A study of Mus musculus with 12 samples.

Results

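The MHC class I antigen presentation genes were described in hippocampal RNA from naturally aged mice, as 10 genes chosen by name from the 27833 genes of the expression table. They were the heavy chains H2-K1, H2-D1 and H2-Q4, the light chain B2m, the peptide transporter genes Tap1 and Tap2, the loading chaperone Tapbp, the immunoproteasome subunits Psmb8 and Psmb9, and the transcriptional activator Nlrc5. All 10 genes were found in the table, and 9 of them had a mean FPKM (fragments per kilobase of gene, relative to the library total) of at least 0.5 over the 12 libraries and were tested. Nlrc5 lay below that level and is given by its values.

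The mice were wild-type male C57BL/6J mice aged 20 months, which received an oral gavage daily for 14 days. The CON group (3 libraries) received normal saline. The PQQ-L group (5 libraries) received 5 mg/kg of pyrroloquinoline quinone (PQQ, a redox-active quinone found in foods) per day, and the PQQ-H group (4 libraries) received 10 mg/kg per day. No young mice were among the libraries, so the comparisons are between aged mice with and without PQQ and between the doses.

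Class I molecules display peptides from inside the cell at its surface, where CD8 T cells and NK cell receptors read them. Proteasomes cut proteins into peptides, with the interferon-induced subunits Psmb8 and Psmb9 taking the places of constitutive subunits. The Tap1-Tap2 transporter moves the peptides into the endoplasmic reticulum, tapasin (Tapbp) holds the empty heavy chain at the transporter, and the loaded heavy chain leaves with beta-2-microglobulin (B2m). In the brain, class I genes are known in endothelium, microglia and choroid plexus, and in neurons at lower levels, and Nlrc5 and interferon signaling drive their transcription.

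The libraries held 29654553 to 38179496 reads on genes, and the reads behind each FPKM could be recovered as whole numbers. Markers of hippocampal neurons were present in all 12 libraries, with a summed FPKM of 1090 to 2450. Markers of striatal neurons, a tissue that lies outside the hippocampus, summed to 1310 to 3290 FPKM in 2 CON libraries (CON 1 and CON 3) and 2 PQQ-H libraries (PQQ-H 1 and PQQ-H 2), and to 37.1 to 177 FPKM in the other libraries. Markers of choroid plexus, the epithelium that secretes cerebrospinal fluid, summed to 342 to 766 FPKM in the CON libraries, to 74.3 to 133 FPKM in PQQ-L and to 63.6 to 89.5 FPKM in PQQ-H. The choroid plexus sum did not overlap between the CON libraries and either PQQ group. In bulk tissue, fewer cells of a type and less RNA per cell cannot be told apart. The class I results are given below with and without the libraries that stood apart. The library names in the table also carry a letter that the labels do not explain and that differs from the group names, L in 7 libraries and R in 5.

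All 9 genes tested had lower mean levels in PQQ-L than in CON, and the same 9 had lower mean levels in PQQ-H, while 53.9% and 55.6% of the 13796 genes tested had a negative log2 fold change in these comparisons. The median log2 fold change of the 9 genes was -0.65 at the lower dose and -0.68 at the higher dose, beside a median of -0.03 over all genes tested in both. Both comparisons used the same 3 CON libraries. By the thresholds of the study's methods (|log2FC| above 1 and adjusted p below 0.05), H2-Q4 alone was called among the 9, at either dose, where 0.471% (PQQ-L) and 0.819% (PQQ-H) of all genes tested were called lower. At an unadjusted p below 0.05, 7 of the 9 were lower in PQQ-L, where 11.6% of all genes tested were, and 7 of the 9 were lower in PQQ-H, where 7.88% were.

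The levels of the 10 genes spanned a wide range. Per kilobase, B2m had the highest mean level over the 12 libraries (136 FPKM), followed by H2-D1 (41.4 FPKM), H2-K1 (19.4 FPKM) and Tapbp (11.5 FPKM). Each of these exceeded the next in the order in 12 of 12 libraries. Psmb8 (5.10 FPKM), Tap2 (4.11 FPKM) and H2-Q4 (3.55 FPKM) followed, and their ranges overlapped, with Psmb8 above Tap2 in 8 of 12 libraries and Tap2 above H2-Q4 in 10 of 12. Psmb9 (1.66 FPKM) and Tap1 (1.28 FPKM) were not separated, since Psmb9 was the higher in 7 of 12 libraries. Nlrc5 came last with 0.0980 FPKM, which rested on 12 to 58 reads per library.

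**Figure D1:**
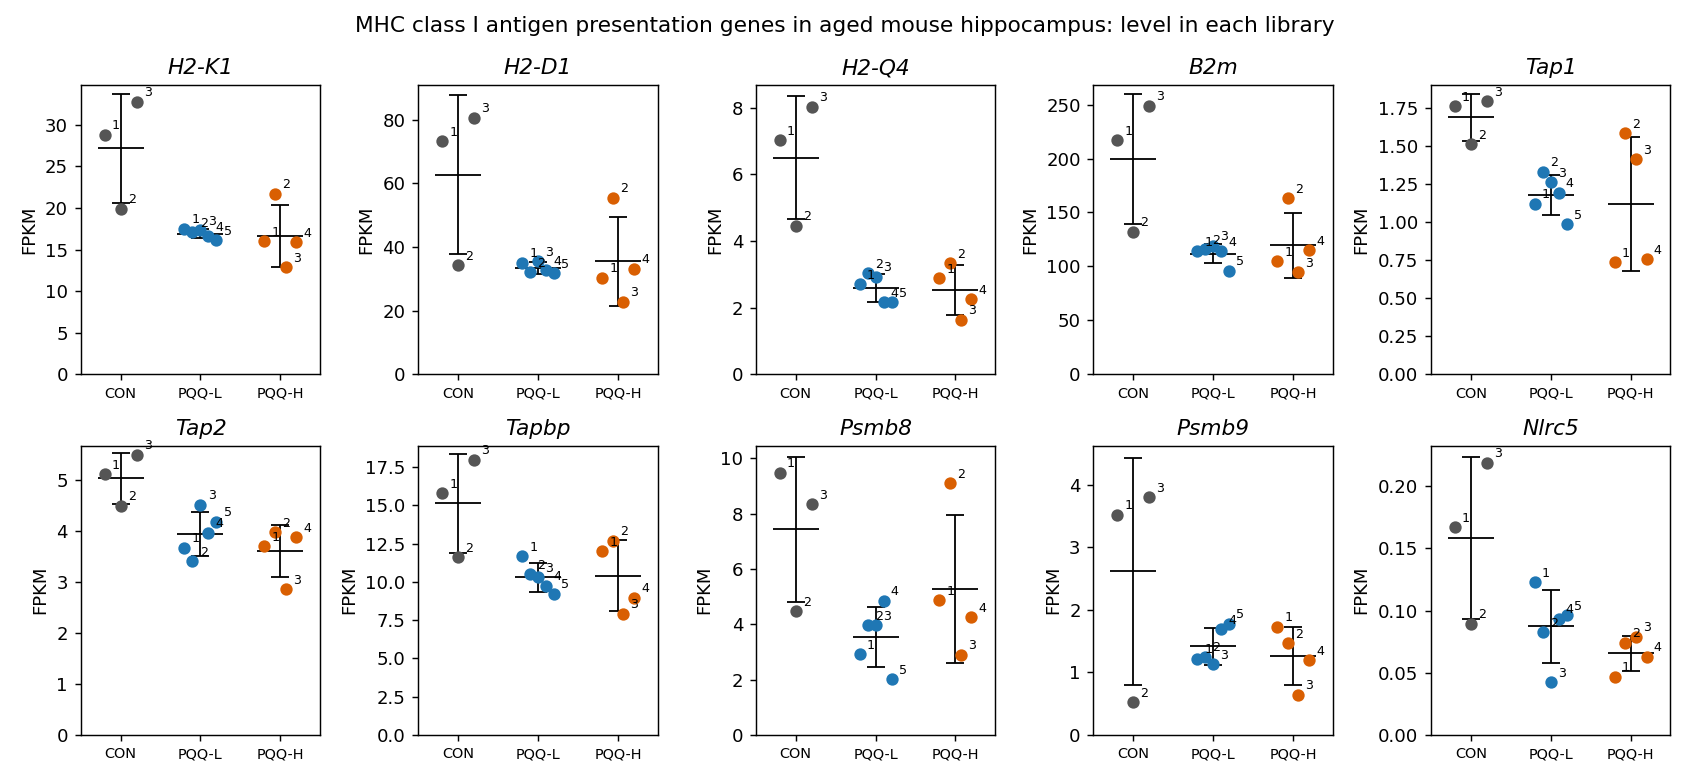
FPKM of the 10 class I genes in each library of CON, PQQ-L and PQQ-H, with 1 panel per gene and an axis from 0 in each. Points are libraries numbered by replicate, and bars give the group mean with 1 SD; CON 1 and CON 3 are the highest pair for most genes, and CON 2 lies nearer to the PQQ libraries.

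The heavy chains form the peptide-binding groove, with H2-K1 and H2-D1 as the classical pair that present to CD8 T cells and H2-Q4 as a member of the Qa region. H2-Q4 measured 7.03, 4.46 and 8.04 FPKM in CON 1 to CON 3. It measured 2.70, 3.04, 2.93, 2.16 and 2.16 FPKM in the 5 PQQ-L libraries and 2.89, 3.34, 1.63 and 2.25 FPKM in the 4 PQQ-H libraries. All 9 PQQ libraries lay below all 3 CON libraries, and PQQ-L and PQQ-H overlapped. The group means were 6.51 ± 1.85 FPKM in CON (SD, n = 3), 2.60 ± 0.419 FPKM in PQQ-L (SD, n = 5) and 2.53 ± 0.746 FPKM in PQQ-H (SD, n = 4). Relative to CON, H2-Q4 fell by 1.27 on the log2 scale in PQQ-L (SE 0.24, limma adjusted p = 0.044) and by 1.34 in PQQ-H (SE 0.25, limma adjusted p = 0.0298). The exact permutation test (two-sided) gave p = 0.0179 and p = 0.0286, the smallest values that 56 and 35 arrangements allow. H2-K1, B2m and Tap1 reached the same smallest value in PQQ-L, and Tap2 and Nlrc5 did in PQQ-H. The call at the lower dose lay near the threshold and was lost with a pseudocount of 0.01 (limma adjusted p = 0.0523), with no filter (0.0503), with a mean FPKM of at least 1 (0.0526) and when any 1 of 9 of the 12 libraries was left out.

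H2-K1 measured 28.8, 19.9 and 32.8 FPKM in CON. It measured 17.5, 17.1, 17.3, 16.6 and 16.1 FPKM in PQQ-L and 16.0, 21.7, 12.9 and 15.9 FPKM in PQQ-H. The PQQ-L libraries were close to each other and all below CON, whereas PQQ-H 2 exceeded CON 2. The log2 differences from CON were -0.65 (SE 0.17, limma adjusted p = 0.14) in PQQ-L and -0.70 (SE 0.18, limma adjusted p = 0.118) in PQQ-H, and neither passed the threshold.

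H2-D1 measured 73.2, 34.3 and 80.7 FPKM in CON. It measured 35.0, 32.1, 35.5, 32.6 and 31.7 FPKM in PQQ-L and 30.3, 55.5, 22.8 and 33.2 FPKM in PQQ-H. CON 2 lay within the range of both PQQ groups, so the difference rested on CON 1 and CON 3. The log2 differences of -0.81 (SE 0.29, limma adjusted p = 0.223) and -0.80 (SE 0.31, limma adjusted p = 0.401) did not pass.

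B2m, the invariant light chain shared by all class I heavy chains, measured 217, 132 and 249 FPKM in CON. It measured 114, 116, 119, 114 and 96.0 FPKM in PQQ-L and 105, 163, 94.7 and 115 FPKM in PQQ-H. All PQQ-L libraries lay below CON, and PQQ-H 2 lay between CON 2 and CON 1. The log2 differences were -0.79 (SE 0.21, limma adjusted p = 0.144) in PQQ-L and -0.72 (SE 0.22, limma adjusted p = 0.22) in PQQ-H, and neither passed.

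Across the 9 genes tested, the libraries did not overlap for 4 in PQQ-L vs. CON (B2m, H2-K1, H2-Q4 and Tap1), all lower, where 7.66% of all genes tested were lower without overlap. In PQQ-H vs. CON this held for H2-Q4 and Tap2, where 5.72% of all genes tested were lower without overlap.

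H2-K1 lies at chr17:33996017-34000347 on the minus strand (GRCm38, GENCODE M21), H2-D1 at chr17:35262730-35267499 and H2-Q4 at chr17:35379617-35385290 on the plus strand, and B2m at chr2:122147686-122153083 on the plus strand. The promoter stretches of these 4 genes are shown because they encode the class I molecule itself and because known class I control elements sit there. Each runs 5′ to 3′ on the strand of the gene, from 200 bases before the annotated start site through 20 bases from that site on (RefSeq, GRCm38.p6). Capitals mark matches on either strand to the kappa B consensus (bound by NF-kappa B factors), to the core of the interferon-stimulated response element (ISRE), to TGACG (the core of the X2 or cyclic AMP response element) and to CCAAT (the Y box, bound by NF-Y).
H2-K1: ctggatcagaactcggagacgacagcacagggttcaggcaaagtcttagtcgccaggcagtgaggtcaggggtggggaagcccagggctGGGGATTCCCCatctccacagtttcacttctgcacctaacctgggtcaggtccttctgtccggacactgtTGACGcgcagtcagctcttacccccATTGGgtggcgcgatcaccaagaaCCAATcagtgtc
H2-D1: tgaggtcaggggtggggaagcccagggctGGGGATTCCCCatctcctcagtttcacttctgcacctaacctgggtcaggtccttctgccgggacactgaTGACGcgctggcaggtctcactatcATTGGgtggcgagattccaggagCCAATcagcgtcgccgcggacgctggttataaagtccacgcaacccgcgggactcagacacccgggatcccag
H2-Q4: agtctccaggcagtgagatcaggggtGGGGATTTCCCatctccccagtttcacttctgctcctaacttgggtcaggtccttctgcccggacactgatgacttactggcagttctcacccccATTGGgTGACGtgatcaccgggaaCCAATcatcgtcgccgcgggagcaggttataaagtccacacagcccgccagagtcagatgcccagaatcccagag
B2m: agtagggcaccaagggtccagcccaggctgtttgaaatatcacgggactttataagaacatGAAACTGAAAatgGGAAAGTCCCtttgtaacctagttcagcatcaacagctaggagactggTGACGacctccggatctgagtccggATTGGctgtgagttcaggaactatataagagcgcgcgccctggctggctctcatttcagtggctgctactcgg
These stretches lie at chr17:34000328-34000547 (minus strand), chr17:35262894-35263113 (plus), chr17:35379417-35379636 (plus) and chr2:122147487-122147706 (plus). Of the 10 genes, 8 had a promoter entry, which spans 300 bases (250 before the start site and 50 from it on), and Tap2 and Nlrc5 are named only. The windows of H2-D1, Tapbp, Psmb8 and Psmb9 lie inside the GENCODE gene, since their RefSeq start site is downstream of the GENCODE start.

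In the 3 heavy chain promoters a kappa B match was followed by TGACG and by a pair of CCAAT matches of opposite strands, and B2m held all 4 motifs. Counted with the start site base as 0, the kappa B match began at -171 in H2-D1, at -174 in H2-Q4 and at -111 in H2-K1, whose annotated start site lies nearer to the motifs. TGACG began at -101 in H2-D1, ahead of the CCAAT pair, and at -73 in H2-Q4, between the CCAAT pair. A kappa B match was found in 4 of the 8 promoters (H2-K1, H2-D1, H2-Q4 and B2m), beside 8.18% of 27025 promoters of the same length. CCAAT was found in 7 of the 8, beside 37.9% of all promoters, and TGACG in 6 of the 8, beside 21.0%. The ISRE core, searched as a fixed pattern without mismatches, was found in B2m only among the 8, beside 3.49% of all promoters. Elements that depart from this pattern were not searched for, so the other promoters may still hold an interferon response element. All 4 motifs together were found in 4 promoters of 27025 (0.0148%), B2m among them. Over the 300 bases, H2-D1 and H2-Q4 were 75.4% identical, H2-K1 and H2-D1 60.4%, and H2-K1 and H2-Q4 56.7%. A match is a description of the sequence, and no binding was measured here.

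**Figure D2:**
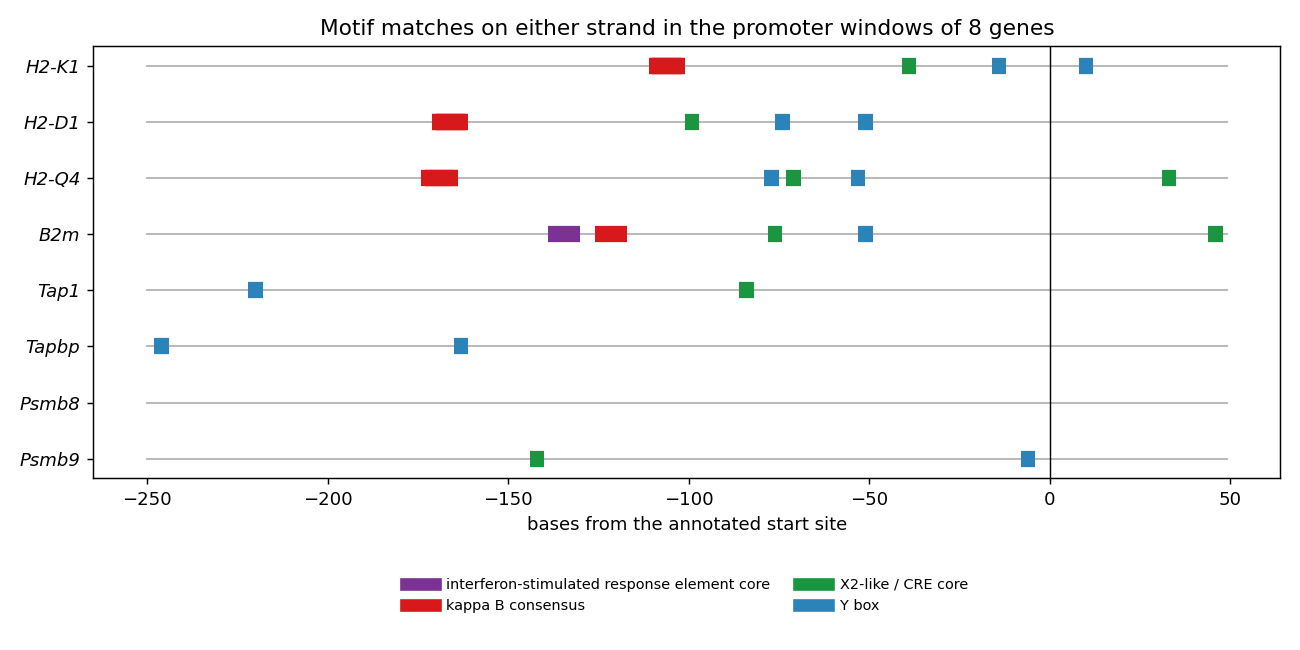
Positions of motif matches in the promoter windows of 8 class I genes, in bases from the annotated start site (vertical line). Colored blocks are matches on either strand. A kappa B match lies upstream of the other matches in the 3 heavy chain genes. No match was found in the Psmb8 window, which lies inside the GENCODE gene.

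Tap1 and Tap2 encode the pair of chains that form the peptide transporter. Tap1 measured 1.76, 1.51 and 1.79 FPKM in CON. It measured 1.12, 1.33, 1.26, 1.19 and 0.983 FPKM in PQQ-L and 0.733, 1.58, 1.41 and 0.753 FPKM in PQQ-H. All PQQ-L libraries lay below CON, while the PQQ-H libraries fell into a low pair (PQQ-H 1 and PQQ-H 4) and a pair at or near the CON range. The log2 differences of -0.49 (SE 0.23, limma adjusted p = 0.249) and -0.62 (SE 0.24, limma adjusted p = 0.422) did not pass.

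Tap2 measured 5.11, 4.50 and 5.50 FPKM in CON. It measured 3.67, 3.41, 4.52, 3.97 and 4.18 FPKM in PQQ-L and 3.70, 3.98, 2.86 and 3.88 FPKM in PQQ-H. All PQQ-H libraries lay below CON, and PQQ-L 3 was level with CON 2. Tap2 had the smallest difference of the 9 genes, -0.34 (SE 0.13, limma adjusted p = 0.226) in PQQ-L and -0.48 (SE 0.13, limma adjusted p = 0.176) in PQQ-H. The ratio of Tap2 to Tap1 was 2.91 to 3.07 in CON, 2.56 to 4.25 in PQQ-L and 2.04 to 5.14 in PQQ-H, a wider range among the PQQ libraries than in CON.

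Tapbp measured 15.8, 11.6 and 18.0 FPKM in CON. It measured 11.7, 10.5, 10.3, 9.75 and 9.22 FPKM in PQQ-L and 12.0, 12.7, 7.92 and 8.96 FPKM in PQQ-H. CON 2 overlapped both PQQ groups. The log2 differences of -0.53 (SE 0.17, limma adjusted p = 0.207) and -0.54 (SE 0.18, limma adjusted p = 0.32) did not pass.

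Psmb8 (LMP7) takes the place of Psmb5 in the immunoproteasome, and Psmb9 (LMP2) that of Psmb6. Psmb8 measured 9.48, 4.47 and 8.35 FPKM in CON. It measured 2.91, 3.96, 3.97, 4.86 and 2.01 FPKM in PQQ-L and 4.88, 9.11, 2.90 and 4.26 FPKM in PQQ-H. PQQ-H 2 lay between CON 3 and CON 1, and CON 2 lay among the PQQ libraries. The log2 difference was -1.04 (SE 0.37, limma adjusted p = 0.224) in PQQ-L and -0.54 (SE 0.39, limma adjusted p = 0.729) in PQQ-H. The constitutive Psmb5 had means of 128 ± 7.71 FPKM in CON (SD, n = 3), 130 ± 15.8 FPKM in PQQ-L (SD, n = 5) and 142 ± 29.8 FPKM in PQQ-H (SD, n = 4). The ratio of Psmb8 to Psmb5 was 0.0719, 0.0334 and 0.0698 in CON, 0.0141 to 0.0360 in PQQ-L and 0.0169 to 0.0761 in PQQ-H.

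Psmb9 measured 3.52, 0.526 and 3.80 FPKM in CON. It measured 1.22, 1.25, 1.13, 1.69 and 1.78 FPKM in PQQ-L and 1.73, 1.47, 0.643 and 1.19 FPKM in PQQ-H. CON 1 and CON 3 were the highest of the 12 libraries and CON 2 was the lowest, with 20 reads against 160 and 163. The log2 differences of -0.47 (SE 0.52, limma adjusted p = 0.551) and -0.68 (SE 0.55, limma adjusted p = 0.755) had errors of their own size and did not pass.

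Psmb9 and Tap1 lie head to head, Psmb9 at chr17:34181987-34187764 (minus strand) and Tap1 at chr17:34187553-34197225 (plus strand) in GRCm38. Their annotated exons overlap, and 275 bases are shared by their promoter windows. The strandedness of the counting is not given in the sources used here, so reads in the overlap cannot be told apart. The Tap1 side of this shared promoter is shown, at chr17:34187306-34187575 (GRCm38.p6, plus strand, 250 bases before the Tap1 start site and 20 from it on), with the CCAAT and TGACG matches in capitals.
Tap1 and Psmb9 shared promoter: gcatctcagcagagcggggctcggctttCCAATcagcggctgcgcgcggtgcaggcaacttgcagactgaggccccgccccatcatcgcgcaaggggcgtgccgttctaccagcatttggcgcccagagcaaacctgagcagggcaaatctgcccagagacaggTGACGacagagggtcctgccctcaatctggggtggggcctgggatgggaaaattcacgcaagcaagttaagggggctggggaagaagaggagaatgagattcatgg
The levels of Psmb9 and Tap1 were not in a fixed ratio. Psmb9 over Tap1 was 2.0, 0.349 and 2.12 in CON 1 to CON 3, 0.900 to 1.81 in PQQ-L and 0.457 to 2.36 in PQQ-H.

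Nlrc5, the activator that acts on class I promoters, measured 0.167, 0.0895 and 0.219 FPKM in CON. It measured 0.123, 0.0827, 0.0423, 0.0934 and 0.0962 FPKM in PQQ-L and 0.0467, 0.0741, 0.0789 and 0.0628 FPKM in PQQ-H. The PQQ-H libraries all lay below CON, and CON 2 lay within PQQ-L. The exact permutation test (two-sided) of the log2 difference gave p = 0.107 for PQQ-L (-0.45) and p = 0.0286, the smallest that 35 arrangements allow, for PQQ-H (-0.61). At these counts the error of counting alone is large, and when all genes above 0 were tested, the limma adjusted p of Nlrc5 was 0.319 and 0.297.

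**Figure D3:**
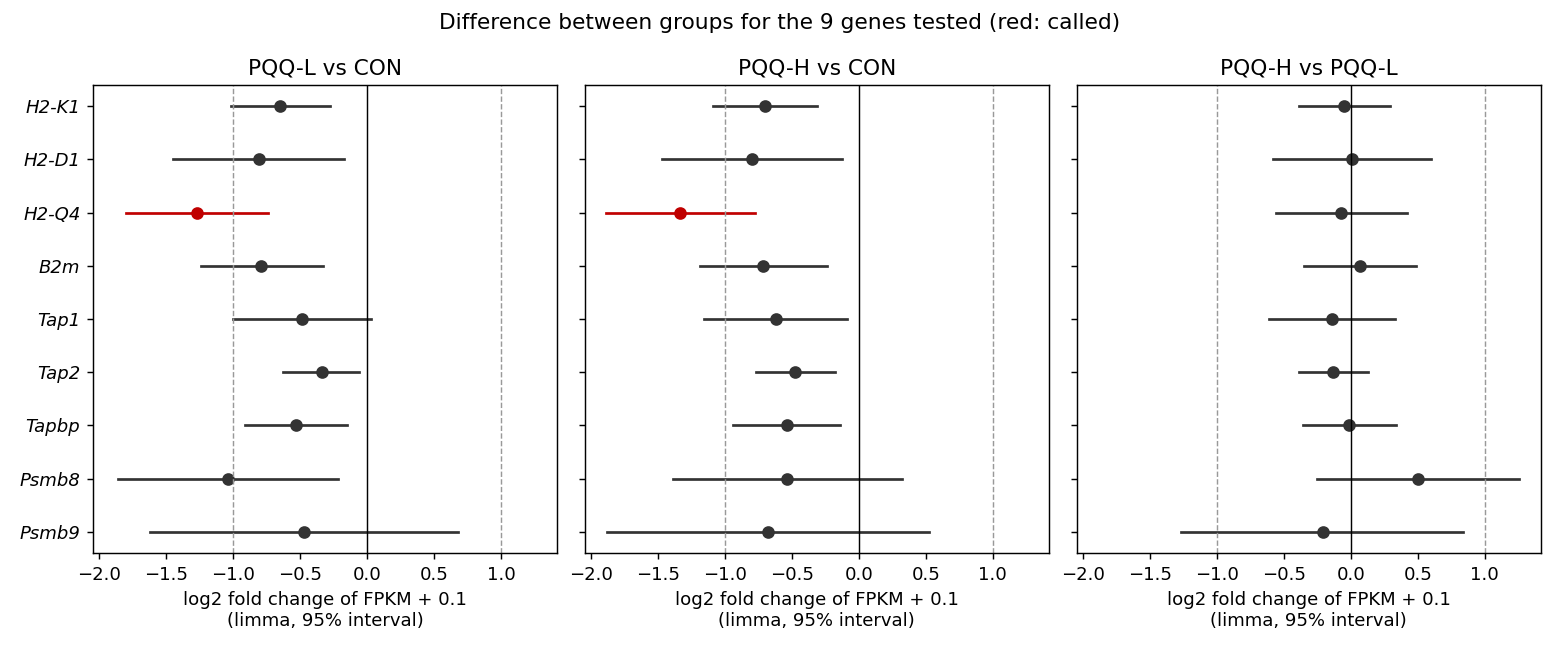
Log2 fold changes of FPKM + 0.1 with 95% intervals from limma for the 9 class I genes tested, for each dose against CON and for the doses against each other. Red marks H2-Q4, the gene called at either dose, and dashed lines mark a log2 fold change of -1 and 1.

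The doses were compared with each other in the same fit. None of the 9 genes was called in PQQ-H vs. PQQ-L by limma, none reached an unadjusted p below 0.05, and none of the 13796 genes tested was called (0%), while 4.60% and 3.55% of them were lower and higher at an unadjusted p below 0.05. The log2 differences ran from -0.21 (Psmb9) to 0.50 (Psmb8), with a median of -0.05. The 95% interval of H2-Q4 was -0.56 to 0.42, that of H2-K1 -0.39 to 0.29 and that of B2m -0.35 to 0.49. For Psmb8 (-0.25 to 1.26) and Psmb9 (-1.27 to 0.84) the intervals reached past a difference of 1 in size. The intervals bound how far the doses could differ and do not show that they act alike.

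The 10 genes shared a pattern over libraries. CON 3 had the highest level of the 12 libraries for 9 of the 10 genes, and CON 1 was among the highest pair for 10 of 10. CON 2 was in the highest pair for none and had a median rank of 5. Among the PQQ libraries, PQQ-H 2 was among the top 3 libraries for 6 of the 10 genes, and PQQ-H 3 was the lowest of 12 for 6. How many of all genes ranked the libraries this way was not counted. Summed over all genes, FPKM was also highest in CON 1 (400869), PQQ-H 2 (394467) and CON 3 (385044). That sum was 343933 to 371731 in the other libraries.

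Without CON 2, 5 of the 9 genes were called in PQQ-L vs. CON by limma (B2m, H2-D1, H2-Q4, Psmb8 and Psmb9), when 865 genes were called in all, and 2 in PQQ-H vs. CON (H2-Q4 and Psmb9), when 136 genes were. Without CON 1 or without CON 3, none of the 9 was called in either comparison. Those at an unadjusted p below 0.05 then numbered 4 and 3 at the lower dose and 5 and 4 at the higher. The share of all genes at that p was not counted in these fits. The H2-Q4 difference stayed between -1.51 and -1.10 in PQQ-L and between -1.58 and -1.15 in PQQ-H when each library was left out in turn. Its call at the lower dose was kept without CON 2, PQQ-H 2 or PQQ-H 3 and lost without any 1 of the other 9 libraries. At the higher dose it was lost without CON 1, CON 3, PQQ-L 1, PQQ-H 3 or PQQ-H 4. Among the libraries named with an L, H2-Q4 differed from CON by -1.43 in PQQ-L and -1.22 in PQQ-H, and among those named with an R by -1.26 and -1.60. Psmb9 differed by 0.23 and -0.28 among the L libraries and by -1.48 and -1.49 among the R libraries, where 1 CON and 1 PQQ-H library (CON 1 and PQQ-H 4) stand for their groups.

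Choroid plexus, endothelial, meningeal fibroblast, striatal and oligodendrocyte markers had mostly negative log2 fold changes at either dose, as the class I genes did. Microglia markers did so at the lower dose only. Most hippocampal neuron markers went the other way. Their sums were 1440 to 1620 FPKM in CON, 1090 to 2140 FPKM in PQQ-L and 1610 to 2450 FPKM in PQQ-H, which overlapped, and 1 and 0 of the 12 had negative log2 fold changes, with medians of 1.34 and 0.70. All 20 choroid plexus markers had negative log2 fold changes in both PQQ groups, with median log2 fold changes of -3.25 and -4.29. Microglia markers summed to 563, 316 and 506 FPKM in CON 1 to CON 3, to 327 to 400 FPKM in PQQ-L and to 377 to 609 FPKM in PQQ-H, and 12 and 5 of 13 had negative log2 fold changes. Their median log2 fold changes were -0.2 in PQQ-L and 0.03 in PQQ-H. Endothelial markers summed to 167, 116 and 162 FPKM in CON, to 115 to 137 FPKM in PQQ-L and to 106 to 183 FPKM in PQQ-H, and 11 and 12 of 12 were below 0. PQQ-H 2, the PQQ library with the highest B2m and H2-D1, had the highest microglial (609 FPKM) and endothelial (183 FPKM) sums, and CON 2 had the lowest microglial sum. PQQ-H 1 had microglial and endothelial sums of 467 and 138 FPKM, above those of all PQQ-L libraries. Its median rank over the 10 class I genes was 9.5 of the 12 libraries. Meningeal fibroblast markers summed to 619 to 849 FPKM in CON, 344 to 657 FPKM in PQQ-L and 250 to 440 FPKM in PQQ-H, and 8 and 9 of the 9 tested were below 0. All 10 striatal and all 8 oligodendrocyte markers had negative log2 fold changes in both PQQ groups, and the oligodendrocyte sums were 2600, 1050 and 2100 FPKM in CON, 911 to 1560 FPKM in PQQ-L and 885 to 2410 FPKM in PQQ-H. Astrocyte markers (478 to 616 FPKM) overlapped between all groups, and 2 and 4 of the 8 had negative log2 fold changes. Of 10 markers of neurons in general, 4 and 2 were below 0, with medians of 0.29 and 0.1. The summed T and NK cell markers were 0.541 to 28.6 FPKM, of which Cd4 alone gave up to 27.6 FPKM in the libraries with high striatal markers. The T cell marker Cd3e was at 0 to 0.116 FPKM in the 12 libraries, and Cd3d at 0 to 0.0612 FPKM. Cd3g was at 0.146 to 0.165 FPKM in CON, on at most 6 reads. It was at most 0.111 FPKM in PQQ-L and 0.0603 FPKM in PQQ-H. B and plasma cell markers summed to 0.214 to 0.599 FPKM, border macrophage markers to 1.97 to 3.90 FPKM and dendritic cell and monocyte markers to 2.63 to 7.76 FPKM.

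With a choroid plexus score as a covariate, the median log2 difference of the 9 genes became 0.29 in PQQ-L and 0.51 in PQQ-H, and no gene of the 13796 was called by limma. Since this score separated CON from both PQQ groups, group and score cannot be told apart. With a striatal score as a covariate, H2-Q4 differed by -0.84 in PQQ-L and -1.20 in PQQ-H, and with a microglia score by -1.01 and -1.38. In PQQ-H, 3 of the 9 genes then had a limma adjusted p below 0.05 with the striatal score (H2-K1, H2-Q4 and Tapbp). With the microglia score 4 did (H2-K1, H2-D1, H2-Q4 and B2m), against 1 without a score. Without a score, 149 of all genes tested (1.08%) were lower and 2 higher at that adjusted p in PQQ-H. The share of all genes at that adjusted p was not counted with the scores. The calls in PQQ-H, which also need a |log2FC| above 1, rose to 141 and 163 of all genes tested with these scores, from 113 without. H2-Q4 alone of the 9 was among the genes called. In the 8 libraries with low striatal markers, which hold CON 2 as the only CON library, H2-Q4 differed by -0.77 and -1.18, while the medians of the 9 genes were -0.24 and -0.42 and none was called. The part of these cell types in the class I levels was not tested.

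**Figure D4:**
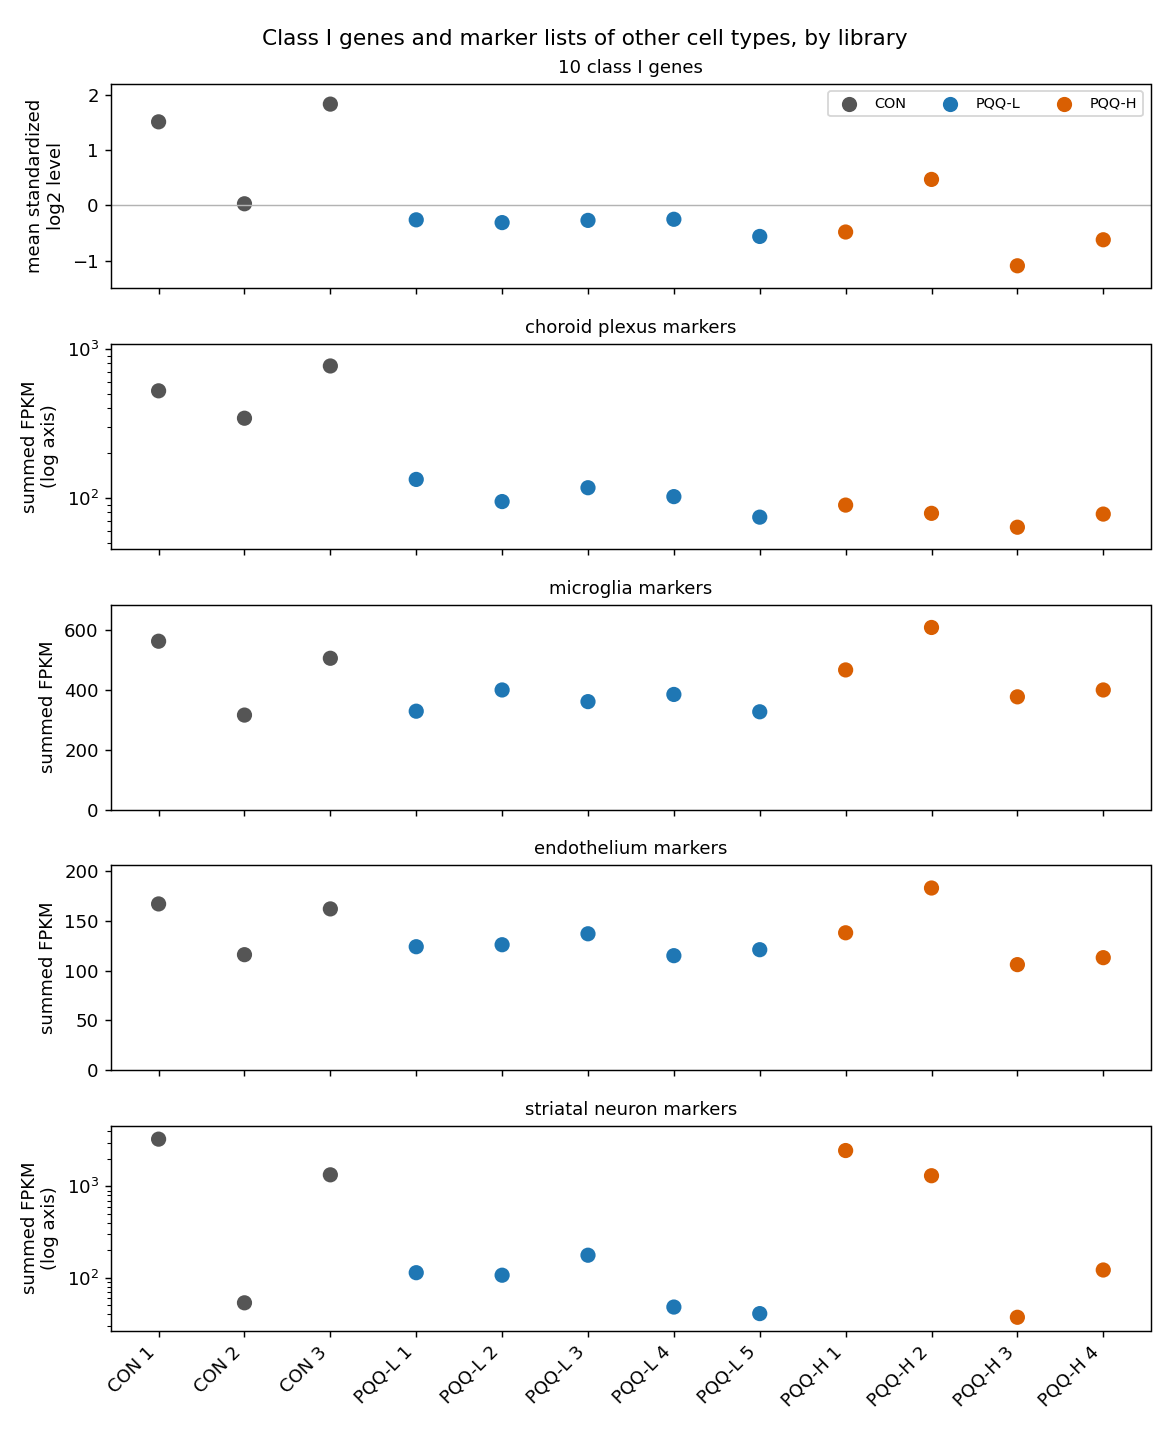
For each of the 12 libraries, the mean standardized log2 level of the 10 class I genes (top) and the summed FPKM of choroid plexus, microglia, endothelium and striatal neuron markers (below; log axes for choroid plexus and striatum). Colors mark CON, PQQ-L and PQQ-H; CON 1, CON 3 and PQQ-H 2 have the highest class I levels, and the choroid plexus sum is high in all 3 CON libraries.

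Within a library, the heavy chains were not all in a fixed ratio to each other. H2-Q4 over H2-K1 was 0.245, 0.224 and 0.245 in CON 1 to CON 3. It was 0.154, 0.178, 0.170, 0.130 and 0.134 in PQQ-L and 0.181, 0.154, 0.127 and 0.141 in PQQ-H. CON 2 sat with CON 1 and CON 3 in this ratio, and no PQQ library reached any CON library. Of the other 13795 genes tested, 0.551% had a ratio to H2-K1 that was lower in all PQQ libraries than in all CON libraries, and of the 8 other class I genes tested from the set of 10, H2-Q4 alone was among them. H2-D1 over H2-K1 was 2.55, 1.72 and 2.46 in CON, 1.88 to 2.06 in PQQ-L and 1.77 to 2.56 in PQQ-H, and overlapped. B2m over the sum of the 3 heavy chains was 1.92 to 2.54 in the 12 libraries and overlapped between all groups. The choice of these ratios was made with the levels known.

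**Figure D5:**
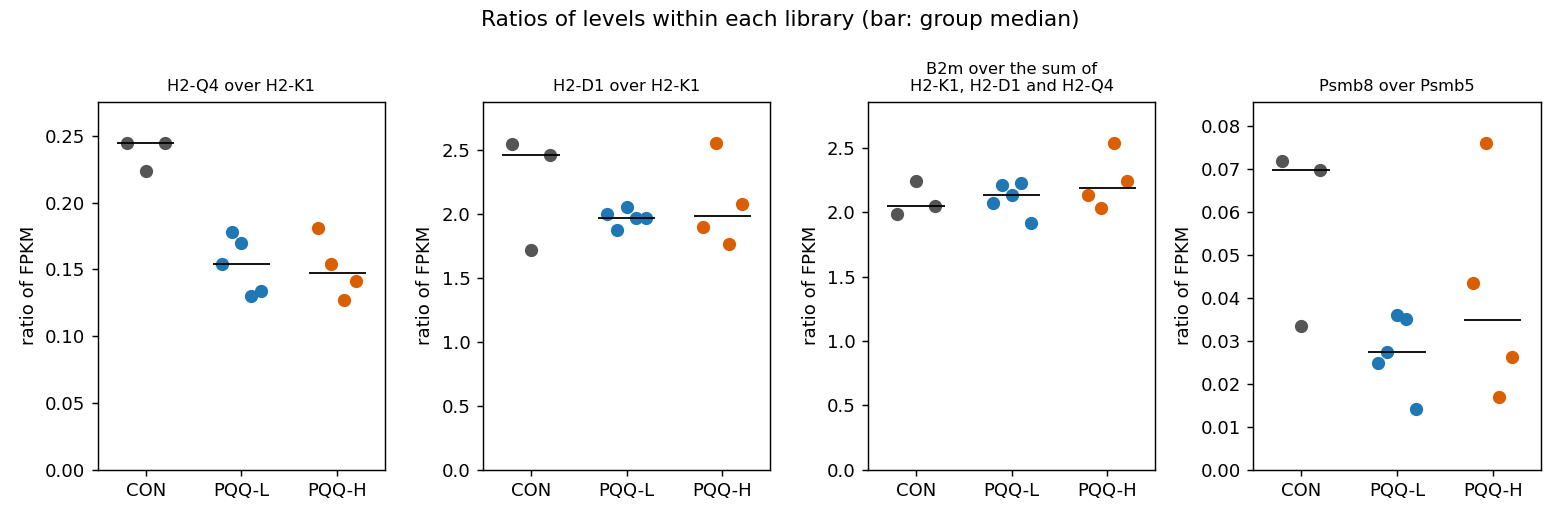
Ratios of FPKM within each library for H2-Q4 over H2-K1, H2-D1 over H2-K1, B2m over the 3 heavy chains and Psmb8 over Psmb5, with libraries as points, group medians as bars and axes from 0. H2-Q4 over H2-K1 is 0.224 to 0.245 in CON and 0.127 to 0.181 in the PQQ libraries, while the other ratios overlap.

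Heavy chain reads can be shared by near-identical genes. Of the 100-base windows in the annotated transcripts, 4.6% of H2-D1 and 2.7% of H2-Q4 occurred in another gene, and none of H2-K1, B2m, Tap1, Tap2, Psmb8, Psmb9 or Nlrc5 did. Levels of H2-Q6 (at most 0.103 FPKM) and H2-Q7 (at most 0.238 FPKM) were far below that of H2-Q4, although the split of reads among these genes rests on the counting.

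Other class I heavy chains and relatives also had lower mean levels. Of 17 genes listed, 7 were tested and 7 had negative log2 fold changes at either dose, with medians of -0.37 and -0.42, and none was called. At the lower dose 4 of them, and at the higher dose 2, were lower at an unadjusted p below 0.05, beside 11.6% and 7.88% of all genes tested. Hfe, a class I relative that regulates iron uptake, came nearest, at 2.81 ± 0.356 FPKM in CON (SD, n = 3), 1.57 ± 0.311 FPKM in PQQ-L (SD, n = 5) and 1.59 ± 0.176 FPKM in PQQ-H (SD, n = 4). Its log2 differences were -0.81 (limma adjusted p = 0.0533) and -0.78 (limma adjusted p = 0.0571). H2-T23 (Qa-1), the ligand of the inhibitory receptor NKG2A, differed by -1.06 and -1.01 (limma adjusted p = 0.24 and 0.546). Mr1, which presents vitamin B metabolites, differed by -0.33 and -0.78 (limma adjusted p = 0.354 and 0.243). Fcgrt, the neonatal Fc receptor, differed by -0.34 and -0.28 (limma adjusted p = 0.235 and 0.584).

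Of 12 genes for peptide loading and trimming, none was called, and the medians were -0.06 in PQQ-L and -0.13 in PQQ-H, beside -0.03 over all genes tested in both. Pdia3, the oxidoreductase of the loading complex, differed by -0.18 and -0.25 (limma adjusted p = 0.219 and 0.16). Calr, the chaperone calreticulin, differed by -0.17 and -0.14 (limma adjusted p = 0.229 and 0.538). Lnpep, an endosomal aminopeptidase, was at 1.72 ± 1.78 FPKM in CON (SD, n = 3) and 3.18 ± 0.399 FPKM in PQQ-L (SD, n = 5), a log2 difference of 1.31 (limma adjusted p = 0.235). In PQQ-H it was at 1.76 ± 0.947 FPKM (SD, n = 4), a log2 difference of 0.34 (limma adjusted p = 0.873). Tpp2, a cytosolic peptidase, differed by 0.34 and 0.17 (limma adjusted p = 0.252 and 0.809).

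The proteasome lists differed less than Psmb8. The 4 other immunoproteasome and activator genes all had negative log2 fold changes, with medians of -0.26 and -0.23, and none was called. Psme1 and Psme2, which form the interferon-induced PA28 activator, differed by -0.29 and -0.48 in PQQ-L (limma adjusted p = 0.233 and 0.224) and by -0.27 and -0.35 in PQQ-H (limma adjusted p = 0.51 and 0.576). Pomp, which assembles the proteasome, differed by -0.23 and -0.06, and Psmb10, the third immunoproteasome subunit, by -0.11 and -0.20. Of 15 constitutive proteasome genes none was called, and the medians were -0.12 and -0.02. At an unadjusted p below 0.05, 5 of them were lower in PQQ-L, where 11.6% of all genes tested were (Psmb1 -0.21, Psmb2 -0.18, Psmb3 -0.22, Psmb6 -0.27 and Psma7 -0.22) and none in PQQ-H.

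Of 20 regulators of class I transcription, none was called, and the median was -0.07 at either dose. In PQQ-L, 2 were lower and 2 were higher at an unadjusted p below 0.05, near the shares of all genes tested (11.6% lower and 8.92% higher), and in PQQ-H 4 were lower, where 7.88% of all genes tested were. Irf9, the DNA-binding part of the interferon-induced complex ISGF3, differed by -0.52 and -0.76 (limma adjusted p = 0.237 in both). Its partner Stat2 differed by -0.17 at the lower dose and by -0.26 at the higher dose (limma adjusted p = 0.254 and 0.341). Nfkb1, a subunit of NF-kappa B, differed by -0.15 and -0.27 (limma adjusted p = 0.277 and 0.315). The receptors and CD8 genes that read class I were too low to test, with 0 of 7 at a mean FPKM of 0.5. Cd8a was at most 0.143 FPKM and Pirb, a neuronal and myeloid class I receptor, at most 0.287 FPKM in any library.

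Interferon response and class II genes, which share inducers with class I, had larger median differences. Of 20 interferon response genes tested, 19 had negative log2 fold changes in each comparison, with medians of -0.82 and -0.90, and 13 in each were lower at an unadjusted p below 0.05, beside 11.6% and 7.88% of all genes tested. Bst2 (tetherin) fell by 1.95 in PQQ-L and by 2.0 in PQQ-H (limma adjusted p = 0.00533 and 0.00414), and Ifi27l2a fell by 2.52 and by 2.73 (limma adjusted p = 0.025 and 0.0146). Irf7, Oasl2 and Ifitm3 fell by 1.79, by 1.28 and by 1.84 in PQQ-H (limma adjusted p = 0.00869, 0.00971 and 0.0484), and differed without passing by -1.32, -0.69 and -1.84 in PQQ-L (limma adjusted p = 0.0529, 0.164 and 0.0537). Of 6 class II genes tested, with medians of -2.29 and -2.48, H2-Ab1 and its chaperone Cd74 were called at either dose (-2.86 and -2.98 in PQQ-L, -3.14 and -3.15 in PQQ-H) and H2-Aa in PQQ-H (-2.89, limma adjusted p = 0.0377). Class II mean levels in CON were lower than those of the classical class I genes, at 4.66 FPKM for H2-Ab1 and 5.02 FPKM for H2-Aa. The choroid plexus sum, which did not overlap between CON and PQQ, moved with these genes, and its part in them was not tested.

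Genes outside the 10 were ranked by how closely their log2 level followed the mean standardized level of the 10 over the 12 libraries. The 8 closest were Tspo (r = 0.976), Ifitm3 (r = 0.976), Slc38a3 (r = 0.972), Tmed3 (r = 0.969), Parp10 (r = 0.968), Retsat (r = 0.965), Tmem176b (r = 0.963) and Acaa2 (r = 0.961). Their Spearman coefficients were 0.783 to 0.930. CON 1 and CON 3 stand apart from the rest in these values, and without this pair the r of the 8 genes over 10 libraries was 0.82 to 0.91. The genes were chosen by these values, which are a description. Tspo, an outer mitochondrial membrane protein used as a marker of glial activation, ranged from 6.38 to 20.2 FPKM in CON and from 3.25 to 7.21 FPKM in the PQQ libraries. Of the 8, Tmem176b passed the adjusted threshold at the lower dose (-0.71, limma adjusted p = 0.0476) and Ifitm3 at the higher dose.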

How the data were processed

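The authors filtered reads with fastp, mapped them with HISAT2, counted them on genes with HTSeq-count and deposited the FPKM of each gene in each library. The build is mm39 per the submitters' processing notes, while annotation and strandedness are not given in the sources used here. The study's own test, DESeq2 on counts, was not repeated. Reads were recovered from FPKM (tolerance 0.02 reads, 100% of 25563 genes), and intervals from reads would cover counting error only. Libraries were grouped by their labels. No pair of libraries within a group was a duplicate, and pairs across groups were not checked.

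The 13796 genes that reached a mean of 0.5 FPKM were tested with limma 3.58.1 (R 4.3.3, trend) on log2(FPKM + 0.1) in one fit of 12 libraries, with Benjamini-Hochberg adjustment over all of them, and called at |log2FC| above 1 and adjusted p below 0.05. A fold on this scale understates the change of low genes. Single genes also had two-sided exact permutation tests (Python 3.11.15, scipy 1.17.1). limma voom on the recovered reads tested 16798 genes with at least 10 reads on average and called 123 genes at the lower dose and 159 at the higher dose. The fit was tested on simulated data. The genes named are the 10, the called or up to 4 leading genes of each list, and the 8 closest in pattern. The genes and lists were chosen with earlier results of these data known. Scores of striatal and microglial markers and the set of 8 libraries were added after seeing the data. The labels number the libraries, which were taken as separate mice. The p-values measure the spread between libraries, which also differed in striatal markers within CON and within PQQ-H.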

Additional observations from a re-analysis of the deposited data

Results flagged for a closer look

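B2m in PQQ-L 5 (96.0 FPKM) lay apart from the other 4 PQQ-L libraries, at 114 to 119 FPKM. Its gap to the nearest of them was 0.816 of the range of the group, above Dixon's critical value. It was the single value marked among 20 groups of 4 or 5 libraries (10 genes in PQQ-L and in PQQ-H), and chance marks about 1 in 20. The groups of 3 (CON) could not be examined this way.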

How the results depend on the processing

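H2-Q4 kept a negative difference under every alternative except the choroid plexus score at the higher dose, and its call moved with the setting. In PQQ-L vs. CON, where 1 of the 9 genes was called, 0 were called with a pseudocount of 0.01, no filter, a mean FPKM of at least 1, array quality weights, the library-name letter or the choroid plexus score as a covariate, and 0 to 5 when 1 library was left out (5 without CON 2). The count at an unadjusted p below 0.05 was 7, and became 0 with the choroid plexus score and 3 to 8 with 1 library left out. In PQQ-H vs. CON, 0 were called with only the groups compared, array quality weights, the letter or the choroid plexus score, and 0 to 2 with 1 library left out, while the count below an unadjusted p of 0.05 went from 7 to 0 with the choroid plexus score and ran from 4 to 8 with 1 library left out. The cause of these moves was not tested. TPM moved the median of all genes in PQQ-L from -0.03 to 0.08, and H2-Q4 then differed by -1.18. The median of the 9 genes moved from -0.65 to -0.54 in PQQ-L and from -0.68 to -0.67 in PQQ-H. limma voom called H2-Q4 at either dose, among 123 and 159 of 16798 genes called. It put 9 and 8 of the 10 genes below an unadjusted p of 0.05. The share of all genes below that p was counted in the main fit only, so such counts under other settings have no share beside them.

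With the choroid plexus score, the log2 differences changed sign in PQQ-L for H2-K1 (0.27), H2-D1 (0.71), B2m (0.49), Tap1 (0.18), Tap2 (0.19), Tapbp (0.29), Psmb8 (0.52) and Psmb9 (1.54), and in PQQ-H for H2-K1 (0.48), H2-D1 (1.14), H2-Q4 (0.18), B2m (0.92), Tap1 (0.23), Tap2 (0.21), Tapbp (0.51), Psmb8 (1.46) and Psmb9 (1.90). Of the settings chosen after seeing the data, the striatal score gave 0 calls in PQQ-L, with 3 genes in PQQ-L and 2 between the doses below an unadjusted p of 0.05. The microglia score gave 3 between the doses. The 8 libraries with low striatal markers, where CON 2 alone stands for CON and is assumed to vary like the other groups, gave 0 calls at either dose and 2, 3 and 3 genes at an unadjusted p below 0.05 in PQQ-L, in PQQ-H and between the doses. Psmb9 in PQQ-L changed sign to 0.32, 0.08 and 1.25 under these settings, and in PQQ-H to 0.64 with the 8 libraries.

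The replicate numbers were not taken to pair the libraries. After centering on group means, correlations of same-numbered libraries ran from -0.62 (CON 2 and PQQ-H 2) to 0.72 (CON 1 and PQQ-H 1). These libraries also differ in striatal markers, so the correlations cannot show whether a pairing exists. With the replicate block, 0 of the 9 genes were called at either dose, and 4 had an unadjusted p below 0.05 in PQQ-L.

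Over all genes tested, 65 were called in PQQ-L and 113 in PQQ-H. Counts over 1.5 times away in PQQ-L were 112 (no filter), 42 (mean FPKM of at least 1), 17 (array quality weights), 23 (replicate block), 0 (choroid plexus score), 40 (striatal score), 123 (voom), 1 (the 8 libraries), 20 without CON 1, 865 without CON 2 (434 of them higher), 33 without CON 3 and 43 without PQQ-L 1. In PQQ-H they were 170 (no filter), 68 (mean FPKM of at least 1), 57 (only the groups compared), 31 (array quality weights), 48 (replicate block), 0 (choroid plexus score), 5 (the 8 libraries), 58 when CON 1 was left out, 47 when CON 3 was, 68 when PQQ-H 3 was and 67 when PQQ-H 4 was. Depth limits Nlrc5 (12 to 58 reads) and Psmb9 (20 to 163 reads) most.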
